A study of Mus musculus with 4 samples.

Results

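Lgr5, Lrig1 and Znrf3 are 3 genes that act at the surface of epithelial stem cells. They were taken by symbol from a deposited differential expression table of mouse pyloric stomach, and all 3 had a row among its 2701 genes. The table holds the genes that the submitters' own test called at an adjusted p of up to 0.05, which is 20.6% of about 13137 genes tested, a number inferred from the deposited p-values. The presence of the 3 genes in it is therefore a condition of their choice and not a result.

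RNA-seq reads were counted in 4 libraries from C57BL/6 mice. Lats1/2 KO (2 libraries) denotes mice with floxed Lats1 and Lats2 that also carry Lgr5-CreER, a tamoxifen-inducible recombinase named for the Lgr5 gene. WT (2 libraries) denotes mice with the same floxed alleles and no CreER, so both groups carry loxP sites in Lats1 and Lats2. Stomachs of both groups were collected 8 weeks after tamoxifen, and RNA came from a few 10 µm frozen sections of the pylorus per library. The labels call the tissue pyloric epithelium, and the sections can hold other cells too. Nothing in the labels says how many animals a library represents, so p-values measure the spread between these libraries.

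LGR5 is a receptor for R-spondins, secreted proteins that strengthen Wnt signalling, and it marks stem cells at the base of pyloric glands and intestinal crypts. ZNRF3 is a membrane-bound ubiquitin ligase that removes Frizzled, the Wnt receptor, from the cell surface. R-spondin held by an LGR receptor takes ZNRF3 itself off the surface. Znrf3 and Lgr5 are both Wnt target genes, so ZNRF3 acts as negative feedback. LRIG1 is a leucine-rich repeat transmembrane protein that limits signalling by EGFR and its relatives, and it marks stem and progenitor cells in several epithelia, stomach included. Lats1 and Lats2 encode the Hippo pathway kinases that restrain the coactivators YAP and TAZ.

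The 3 genes lie on different chromosomes of build GRCm38, each on the minus strand. Lgr5 (ENSMUSG00000020140) spans chromosome 10, 115450311 to 115587780, Lrig1 (ENSMUSG00000030029) spans chromosome 6, 94604529 to 94700158, and Znrf3 (ENSMUSG00000041961) spans chromosome 11, 5276324 to 5444847. Their annotated exons cover 10264 bases in Lgr5, 5585 in Lrig1 and 7893 in Znrf3 (GENCODE M21). Exons of Slc25a26, on the opposite strand, share 144 bases with those of Lrig1. The kit marked strand, but whether reads were counted by strand is not given in the sources used here.

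RefSeq's promoter table (GRCm38.p6) held 1 of the 3 genes, Lrig1, and the sequence upstream of that gene is shown because its transcript rose. The 237 bases upstream of the GENCODE start of Lrig1, at chr6:94700159-94700395 and on the minus strand, were as follows, with CCAAT and GGGCGG matches in capitals.
Lrig1 promoter: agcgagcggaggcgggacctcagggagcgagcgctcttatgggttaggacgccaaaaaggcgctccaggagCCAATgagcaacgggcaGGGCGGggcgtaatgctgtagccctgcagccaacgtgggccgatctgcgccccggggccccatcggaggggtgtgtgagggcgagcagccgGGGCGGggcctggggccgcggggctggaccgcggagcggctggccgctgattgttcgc
The window was 71.7% G or C. It held a CCAAT box (CCAAT or ATTGG) starting 166 bases upstream of the gene's start and GC boxes (GGGCGG or CCGCCC) starting 149 and 58 bases upstream. Windows of the same length held a CCAAT box in 32.8% and a GC box in 30.9% of 32851 RefSeq promoters. The TCF/LEF core CTTTGA and the TEAD core GGAATG, each searched on both strands, had no match in these letters, and 13.3% and 12.1% of promoters held them.

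The genes of the table held between 13413629 and 17689207 counts per library. Lats1 checked the genotype: it had 942.5 and 1129 normalized counts in Lats1/2 KO 1 and 2, against 2152 and 1974 in WT 1 and 2. Its log2 fold change was -0.99 ± 0.17 (SE) with an edgeR quasi-likelihood adjusted p of 0.0117 (0.0702 without Lats1/2 KO replicate 2). That count still includes exons without loxP sites and cells that did not recombine. Lats2 had no row in the table and was not analysed here.

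Lgr5 fell 3.10-fold in the Lats1/2 KO pylorus, while Lrig1 rose 1.86-fold and Znrf3 1.96-fold. Among the genes tested by the submitters, 8.81% rose and 11.7% fell. The Lats1/2 KO libraries lay within counting error of each other for each of the 3 genes, and most of the spread lay between the WT libraries. WT 2 stood farther from the Lats1/2 KO libraries than WT 1 for every one of them: it had the most Lgr5 and the least Lrig1 and Znrf3.

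Lgr5 was covered thinly, with 28 and 33 raw counts in Lats1/2 KO 1 and 2, against 46 and 91 in WT 1 and 2. Divided by the submitters' size factors, these were 25.4 and 25.8 normalized counts in the Lats1/2 KO libraries, against 58.0 and 100.4 in the WT libraries. Both Lats1/2 KO libraries were below both WT libraries. Exact Poisson 95% intervals, which cover counting error only, ran from 16.8 to 36.6 and from 17.8 to 36.2 in Lats1/2 KO 1 and 2, and from 42.5 to 77.4 and from 80.8 to 123.2 in WT 1 and 2. The intervals of the 2 groups did not meet, and those of WT 1 and WT 2 did not meet either. Lgr5 averaged 25.6 ± 0.311 normalized counts in Lats1/2 KO and 79.2 ± 29.9 in WT (SD, n = 2 each).

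The log2 fold change of Lgr5 was -1.63 ± 0.48 (SE), with an edgeR adjusted p of 0.0218. The authors' deposited table gives a shrunken value of -1.16 with an adjusted p of 0.0411. Lgr5 stayed lower whichever library was left out. Dropping WT 1 made its log2 fold change -1.97, and dropping WT 2 made it -1.18. Dropping Lats1/2 KO 1 or 2 gave -1.62 or -1.64. Each of these fits leaves a group with a lone library, so its adjusted p cannot decide whether the call holds. The call was lost when edgeR's TMM factors, computed on the table, replaced the submitters' factors (log2 fold change -1.26, adjusted p = 0.0631). With TMM factors 61.1% of the table passed. Only the Lats1/2 KO mice carry the Lgr5-CreER allele, so any effect of that allele on Lgr5 transcripts and that of the Lats1/2 deletion cannot be told apart. In bulk sections, fewer Lgr5-positive cells and less Lgr5 RNA per cell cannot be told apart either.

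Lrig1 was well covered, with 1878 and 2215 raw counts in Lats1/2 KO 1 and 2, against 943 and 592 in WT 1 and 2. Its normalized counts were 1700 and 1731 in the Lats1/2 KO libraries, against 1190 and 652.9 in the WT libraries. Both Lats1/2 KO libraries were above both WT libraries, and WT 1 lay between WT 2 and the Lats1/2 KO libraries. The gene averaged 1716 ± 21.8 normalized counts in Lats1/2 KO and 921.5 ± 380 in WT (SD, n = 2 each). The Poisson intervals of the WT libraries, 1115 to 1268 in WT 1 and 601.4 to 707.7 in WT 2, were far apart, so counting error does not cover their distance.

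The log2 fold change of Lrig1 was 0.90 ± 0.30 (SE), with an edgeR adjusted p of 0.0269, and the authors' deposited table lists 0.0312. Its size turned on which WT library was used. The value was 0.53 when WT 2 was left out and 1.39 when WT 1 was. It was 0.91 without Lats1/2 KO replicate 1 and 0.88 without Lats1/2 KO replicate 2.

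Znrf3 had 288 and 344 raw counts in Lats1/2 KO 1 and 2, against 129 and 98 in WT 1 and 2. These came to 260.8 and 268.9 normalized counts in the Lats1/2 KO libraries, against 162.8 and 108.1 in the WT libraries. The groups did not overlap, and their Poisson intervals, from 231.5 upward in Lats1/2 KO and up to 193.4 in WT, did not meet. The mean was 264.8 ± 5.73 in Lats1/2 KO and 135.4 ± 38.7 in WT (SD, n = 2 each). The log2 fold change was 0.97 ± 0.31 (SE), with an edgeR adjusted p of 0.0249, and the authors' deposited table lists 0.0386. Left-out libraries moved the log2 fold change between 0.70 (WT 2 dropped) and 1.29 (WT 1 dropped). Dropping Lats1/2 KO 1 or 2 gave 0.99 or 0.95. As for Lgr5, the adjusted p of these fits cannot decide whether the call holds.

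**Figure D1:**
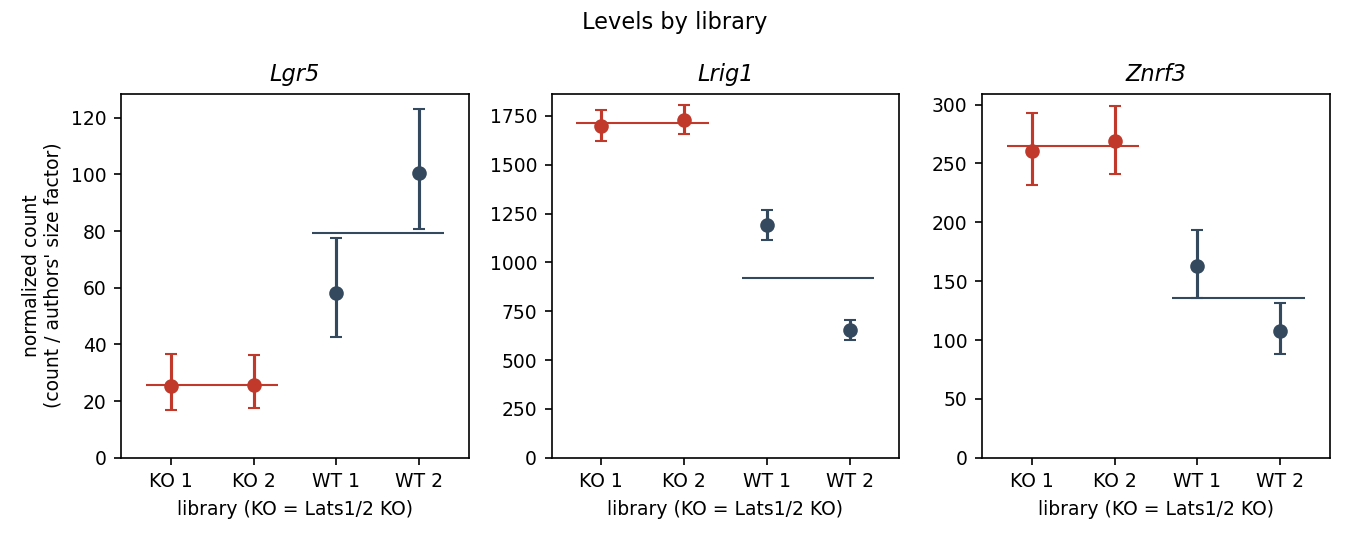
Normalized counts (counts divided by the submitters' size factors) of Lgr5, Lrig1 and Znrf3 in each library, with Lats1/2 KO in red and WT in dark blue. Points carry exact Poisson 95% intervals, horizontal lines are group means, and each panel has its own axis from 0. Lgr5 lies at 25.4 and 25.8 in Lats1/2 KO, below both WT libraries, while Lrig1 and Znrf3 lie above both.

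Non-overlap of the groups sets none of the 3 genes apart, since it held for 99.9% of the table's genes. By the submitters' p-value, Lrig1 ranked 2322, Znrf3 2488 and Lgr5 2537 of 2701 genes, all toward the weak end of the table. The spread between WT libraries was wide for all of them. WT 2 and WT 1 differed by 0.79 (Lgr5), 0.87 (Lrig1) and 0.59 (Znrf3) on the log2 scale, against a median of 0.23 over the table, and 89.3%, 90.9% and 82.6% of its genes had a smaller spread. The Lats1/2 KO libraries differed by only 0.025 (Lgr5), 0.026 (Lrig1) and 0.044 (Znrf3), against a median of 0.19. Distances this small lie within the counting error of these libraries, so they do not measure how well replicates agree. Whether selection by p-value favours genes with close Lats1/2 KO libraries was not tested. In size of change, Lgr5 exceeded 84.1% of the genes that fell, by the deposited log2 fold changes. Lrig1 and Znrf3 exceeded 31.5% and 35.1% of those that rose. Lgr5 was also among the most thinly counted genes: its base mean exceeded that of 1.26% of the table, whereas that of Znrf3 exceeded 12.8% and that of Lrig1 51.6%.

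**Figure D2:**
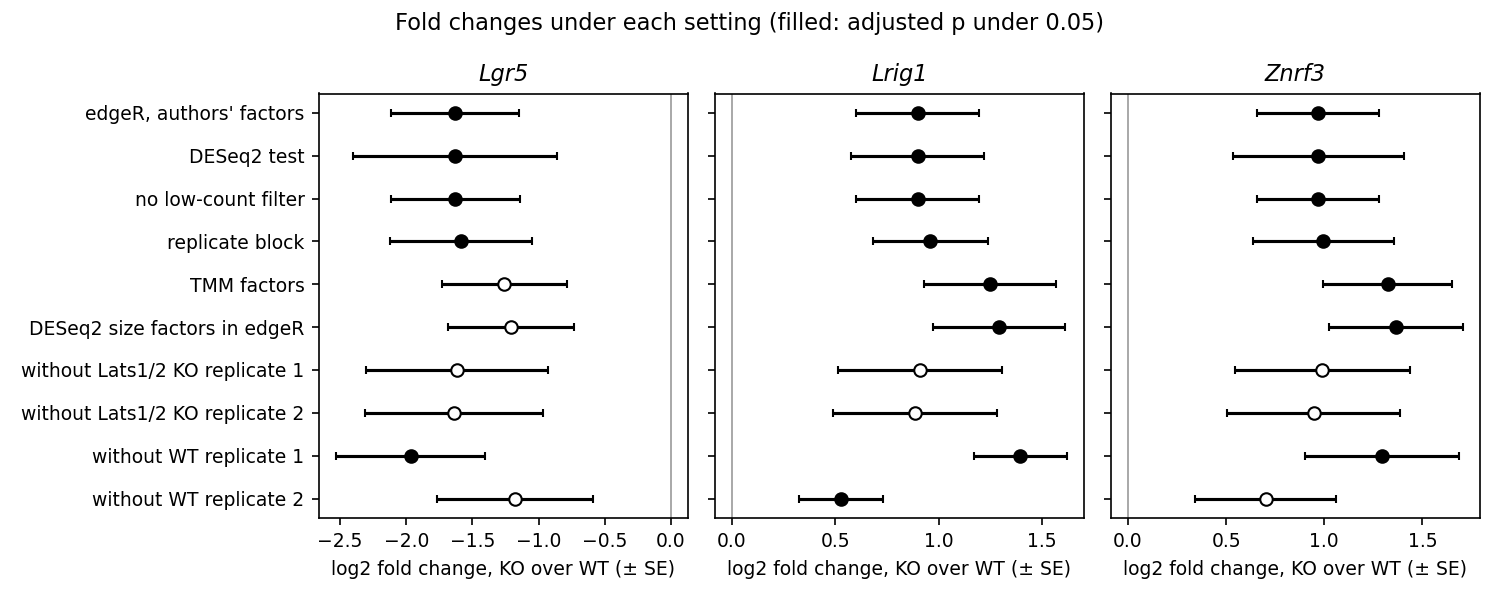
Log2 fold change of each gene, Lats1/2 KO over WT (± SE), under the test used here and 9 alternatives. Filled points have an adjusted p under 0.05 and open points do not. Lgr5 stayed below 0 and Lrig1 and Znrf3 above 0 in every row. Lgr5 kept the call in 4 of the 9, Lrig1 in 7 and Znrf3 in 6. The 9 include fits that leave a group with a lone library, whose calls decide little.

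Per length of annotated exon, pooled over a gene's transcripts, Lrig1 was the most abundant of the 3 in every library. Lgr5 was the least, though in WT 2 its order against Znrf3 is not settled. On the scale of normalized counts per kilobase of exon, Lrig1 was at 307.2 ± 3.90 in Lats1/2 KO and 165.0 ± 68.0 in WT. Znrf3 was at 33.6 ± 0.726 in Lats1/2 KO and 17.2 ± 4.90 in WT, and Lgr5 at 2.49 ± 0.0303 in Lats1/2 KO and 7.72 ± 2.92 in WT (SD, n = 2 each). Of the neighbours in this order, Znrf3 and Lgr5 came closest in WT 2, where Znrf3 was 1.40 times Lgr5 per length. Raw counts there were 98 for Znrf3 and 91 for Lgr5, with overlapping Poisson intervals, so that factor rests mainly on the annotated lengths. In the Lats1/2 KO libraries that factor was 13.4 and 13.6.

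Ratios of counts within a library need no size factor, so they do not depend on how the libraries were scaled. The ratio of Znrf3 to Lgr5 counts was 10.3 and 10.4 in Lats1/2 KO 1 and 2, against 2.80 and 1.08 in WT 1 and 2. The ratio of Lrig1 to Lgr5 was 67.1 in each Lats1/2 KO library, against 20.5 and 6.51 in WT 1 and 2. By geometric means over libraries, the first ratio was 5.96-fold and the second 5.81-fold higher in Lats1/2 KO than in WT. On the log2 scale these differences were 2.57 and 2.54. Leaving out WT replicate 2 made them 1.88 and 1.71, and leaving out WT replicate 1 made them 3.27 and 3.37. Both were higher in 2 of 2 Lats1/2 KO libraries than in either WT library. That order was fixed in advance, since Lgr5 was lower and Lrig1 and Znrf3 higher in both Lats1/2 KO libraries. It adds no support to those changes. Each exact two-sided permutation test had to give p = 0.333, the smallest value that 2 libraries against 2 allow. None of these ratios could therefore pass a threshold of 0.05, before or after adjustment over the 3 ratios tested.

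The ratio of Lrig1 to Znrf3 counts lay between 6.04 and 7.31 in all 4 libraries. There were 6.52 and 6.44 Lrig1 counts per Znrf3 count in Lats1/2 KO 1 and 2, against 7.31 and 6.04 in WT 1 and 2. On the log2 scale the ratio was 2.70 ± 0.013 in Lats1/2 KO and 2.73 ± 0.195 in WT (SD, n = 2 each), a difference of -0.036, smaller than the spread between the WT libraries. With 2 libraries against 2, the exact permutation test used for these ratios cannot go below p = 0.333. It could show neither a difference nor its absence.

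**Figure D3:**
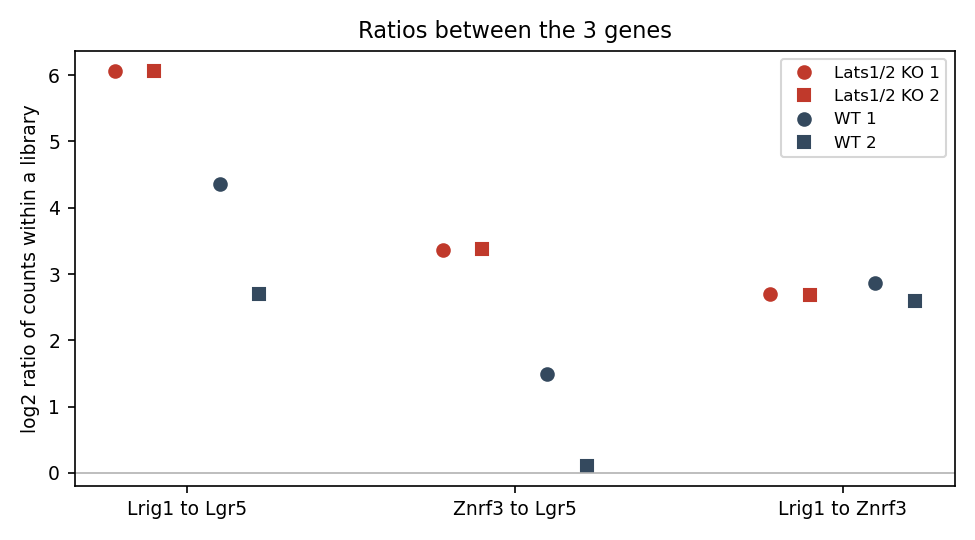
Log2 ratio of raw counts between pairs of the 3 genes within each library, with Lats1/2 KO in red and WT in dark blue. The ratios to Lgr5 are higher in both Lats1/2 KO libraries than in either WT library, while the ratio of Lrig1 to Znrf3 lies between 2.59 and 2.87 in all 4.

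Other genes of the same pathways were read from 8 lists that cover Wnt signalling, stem cell markers, ErbB signalling and receptor kinase brakes. Of their 157 annotated genes, 28 had a row, 15 higher and 13 lower in Lats1/2 KO. That is 17.8% of annotated genes, beside 20.6% of all genes tested. Of all genes in the table, 42.9% were higher. All 28 had an edgeR adjusted p under 0.05, as did 99.9% of the genes tested from the table. Without Lats1/2 KO replicate 2 none of the 28 passed edgeR's threshold, as only 5 of the 2701 genes did (0.185%). The number was 14 without Lats1/2 KO replicate 1, when 55.6% of the table passed, 27 without WT replicate 1 (90.9%) and 23 without WT replicate 2 (80.7%). With TMM factors 20 of the 28 passed (61.1% of the table), and with DESeq2 size factors 19 (58.9%). The genes lost with TMM factors were all among those that fell: Lgr5, Lgr4, Wnt5b, Csnk1a1, Ctnnbip1, Erbb3, Tgfa and Spry2. With DESeq2 size factors Fzd5 was lost too. No gene of the 28 changed direction under any setting tried.

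Among 40 Wnt receptors and surface regulators, 7 had a row (17.5%, beside 20.6% of all genes tested), of which 4 rose and 3 fell. The median log2 fold change of the 7, 0.81, is that of Wls, the smallest rise, and restates that split. Lgr4, the broadly expressed relative of Lgr5 that also binds R-spondins, fell with it: 5212 and 5069 normalized counts in Lats1/2 KO 1 and 2, against 8128 and 7641 in WT 1 and 2. Its log2 fold change was -0.62 ± 0.12 (SE; edgeR adjusted p = 0.0126). Fzd5, a Frizzled receptor of gut epithelium, fell to 3934 and 3330 normalized counts in the Lats1/2 KO libraries, against 5549 and 7079 in the WT libraries. The receptor tyrosine kinase gene Ror2, which binds WNT5A, rose to 308.7 and 474.4 normalized counts in Lats1/2 KO 1 and 2, against 189.3 and 84.9 in WT 1 and 2. Like Lrig1 and Znrf3, it was lowest in WT 2.

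Porcn and Wls, which serve the secretion of Wnt ligands, rose. Porcn, which attaches a lipid to the ligand, had 311.5 and 274.3 normalized counts in the Lats1/2 KO libraries, against 145.1 and 125.7 in the WT libraries. Wls, which carries the lipidated ligand to the surface, rose 1.75-fold. Of 19 ligand genes, 3 had a row (15.8%). Wnt4 rose to 615.7 and 708.1 normalized counts in the Lats1/2 KO libraries, against 175.4 and 226.1 in the WT libraries. Wnt11 and Wnt5b fell by 1.44 and 1.52 on the log2 scale.

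Inside the cell, 5 of 28 Wnt components had a row (17.9%, beside 20.6% of all genes tested), 2 higher and 3 lower. The median log2 fold change of the 5, -0.52, is that of Csnk1a1, the smallest fall. Tcf7l2, the main DNA-binding partner of beta-catenin in gut epithelium, fell to 527.0 and 462.7 normalized counts in the Lats1/2 KO libraries, against 955.3 and 968.4 in the WT libraries. Ctnnbip1, an inhibitor of beta-catenin, and Csnk1a1, a kinase of the destruction complex, had log2 fold changes of -0.76 and -0.52. Dvl1, which relays the signal from Frizzled, and the kinase gene Csnk1e rose by 0.54 and 0.91 on the log2 scale.

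Of 22 Wnt target genes, 5 had a row (22.7%, near the 20.6% of all genes tested). Lgr5 was the only one of these 5 that fell, and 42.9% of the table's genes were higher. Besides Znrf3, the cyclin gene Ccnd1 rose 1.81-fold. Myc, a growth regulator, rose to 541.4 and 819.9 normalized counts in the Lats1/2 KO libraries, against 280.2 and 253.7 in the WT libraries. Sox4, a transcription factor gene, was at 325.0 and 87.5 normalized counts in Lats1/2 KO 1 and 2, against 42.9 and 16.5 in WT 1 and 2. Its log2 fold change was 2.80, and leaving out Lats1/2 KO replicate 1 made it 1.56. Among 27 stem cell markers, 7 had a row (25.9%, beside 20.6% of all genes tested). Of these 7, 5 rose and 2 fell (median log2 fold change of the 7, 0.97). Lgr4 and Lgr5 were those that fell, and Iqgap3, a scaffold gene of cycling cells, led the rise at 3.69-fold. Stmn1 rose 1.99-fold and Clu 2.50-fold.

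Lrig1 rose while its best known partner fell. Egfr had 3344 and 2772 normalized counts in Lats1/2 KO 1 and 2, against 4928 and 6181 in WT 1 and 2, with a log2 fold change of -0.86 ± 0.17 (SE; edgeR adjusted p = 0.0128). Erbb3 fell by 0.58 on the log2 scale, and the ligand genes Tgfa and Areg fell by 0.55 and 1.40 (Areg by 0.92 without WT replicate 2). These 4 were the ones with a row among 6 receptor genes (33.3%) and 11 ligand genes (18.2%), beside 20.6% of all genes tested. Each was lower, as were most genes of the table, of which 42.9% were higher. Of 21 receptor kinase brakes, 3 had a row (14.3%), of which Lrig1 and Lrig3 rose and Spry2 fell. Lrig3, a close relative of Lrig1, had 317.8 and 291.5 normalized counts in the Lats1/2 KO libraries, against 166.6 and 141.2 in the WT libraries, 1.98-fold higher. Spry2, a feedback inhibitor of receptor kinases, had 354.9 and 358.0 normalized counts in the Lats1/2 KO libraries, against 502.3 and 797.4 in the WT libraries. Its log2 fold change of -0.87 was -0.49 without WT replicate 2.

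**Figure D4:**
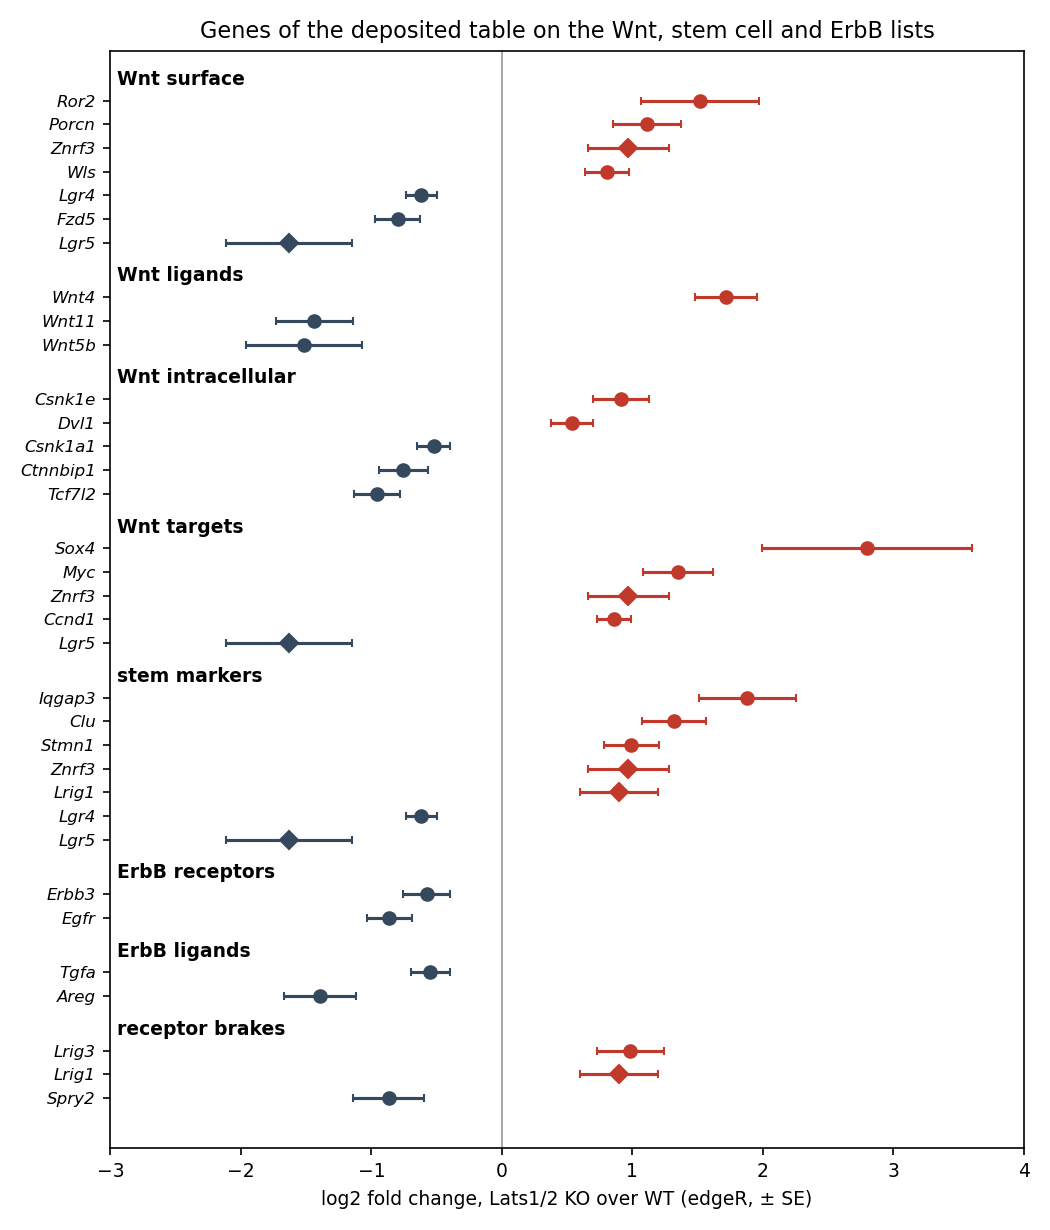
Log2 fold change, Lats1/2 KO over WT, with SE, of the genes on the 8 lists that have a row in the table, red where higher and dark blue where lower in Lats1/2 KO. Diamonds mark Lgr5, Lrig1 and Znrf3, and a gene on several lists appears in each. Porcn, Wls and Znrf3 lie to the right of 0 and Lgr4, Lgr5 and Fzd5 to the left.

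Members of several marker lists also had a row, and their part in these results was not tested. The counts below stand beside 20.6% of all genes tested with a row, and 42.9% of the table's genes higher in Lats1/2 KO. All 20 cell cycle genes of the list rose, with summed levels of 33541 and 37807 normalized counts in Lats1/2 KO 1 and 2, against 12031 and 17972 in WT 1 and 2. Surface mucous genes fell, 6 of 9 with a row, and summed to 2349700 and 1923670 in the Lats1/2 KO libraries, against 4363830 and 4619520 in the WT libraries. Most of each sum came from Gkn1 and Gkn2. Intestinal genes had 3 of 16 members in the table (18.8%, near the share of all genes tested), Vil1 and Fabp2 lower and Lyz1 higher. Their sum was 13764 and 10053 in Lats1/2 KO 1 and 2, against 24209 and 42516 in WT 1 and 2, highest in WT 2 as for Lgr5.

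Fibroblast markers (Col1a2, Col3a1 and Mmp2, 3 of 10) fell and were also highest in WT 2. They summed to 7414 and 6332 in the Lats1/2 KO libraries, against 10068 and 13681 in the WT libraries. With TMM factors none of the 3 passed edgeR's threshold (adjusted p = 0.0807, 0.0752 and 0.0847), where 61.1% of the table did. The log2 fold change of Mmp2, -1.04, was -0.56 without WT replicate 2. General epithelial markers had 5 of 8 members listed, 1 higher (Cldn7) and 4 lower (Cdh1, Krt8, Krt19 and Cldn18). Their sums were 389173 and 440870 in the Lats1/2 KO libraries, against 546611 and 674224 in the WT libraries. Most of each sum came from Krt8 and Krt19. With TMM factors Cldn7 passed edgeR's threshold, and the 4 lower genes did not (adjusted p from 0.247 to 0.430). Antral gland mucous cells were represented by Dmbt1 alone (1 of 7, higher), immune cells by Cd14 (1 of 16, higher) and endothelium by Kdr (1 of 8, lower). Parietal cells were represented by Kcnj15, Slc9a4 and Car2 (3 of 9, lower) and endocrine cells by Sst and Ghrl (2 of 10, higher). Sst had 71.5 and 336.9 normalized counts in Lats1/2 KO 1 and 2, against 21.5 and 38.6 in WT 1 and 2. Ghrl had 246.3 and 1288 in Lats1/2 KO 1 and 2, against 41.6 and 34.2 in WT 1 and 2. Their log2 fold changes of 2.76 and 4.34 were 1.24 and 2.70 without Lats1/2 KO replicate 2. Pancreatic Cela1 was higher and Cela2a lower (2 of 10), the last at 3.62 and 0.782 normalized counts in Lats1/2 KO 1 and 2, against 6.31 and 215.1 in WT 1 and 2. No smooth muscle or enteric neuron and glia marker had a row.

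The genes nearest to each of the 3 in pattern were found among 2618 others by the Euclidean distance between log2 normalized counts, each centred on the gene's mean over the 4 libraries. Nearest to Lgr5 were Crybb3 (distance 0.12), Wnt5b (0.13), Trim36 (0.20) and Abhd6 (0.21). Wnt5b had 33.5 and 32.8 normalized counts in Lats1/2 KO 1 and 2, against 73.2 and 116.9 in WT 1 and 2. Nearest to Lrig1 were Vgll4, which encodes a TEAD cofactor (0.077), Paip2b (0.090), the glutamine transporter gene Slc1a5 (0.092) and Pdxk (0.12). Nearest to Znrf3 were Fbxo21 (0.062), Dhodh, which encodes an enzyme of pyrimidine synthesis (0.068), Pgghg (0.087) and Usp46 (0.090). Znrf3 was itself the 12th nearest gene to Lrig1, at a distance of 0.20, and Lrig1 the 29th nearest to Znrf3. Distances over 4 libraries of 2 groups rest mainly on the group difference and on WT 1 against WT 2.

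**Figure D5:**
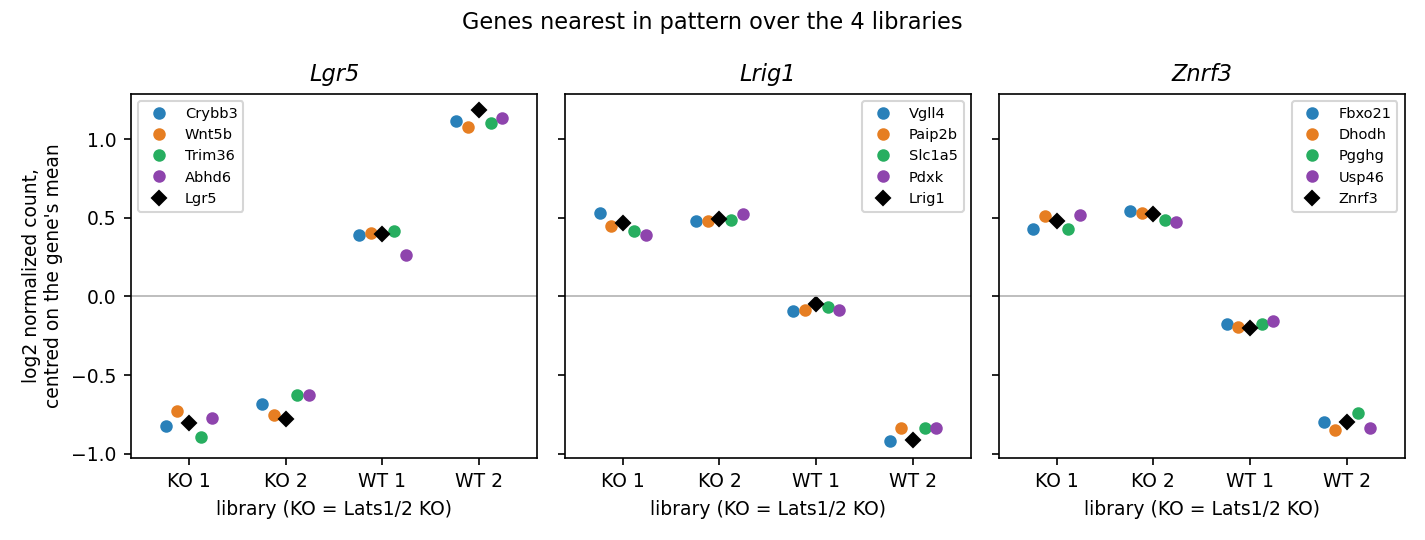
Log2 normalized counts, centred on each gene's mean over the 4 libraries, for Lgr5, Lrig1 and Znrf3 (black diamonds) and the 4 genes nearest to each in pattern (coloured points, set apart sideways so that they can be told from each other). In the Lgr5 panel WT 2 is highest, and in the Lrig1 and Znrf3 panels WT 2 is lowest.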

How the data were processed

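The authors deposited a table of read counts per gene for 4 libraries, with their DESeq2 base mean (a signal), log2 fold change and its standard error, Wald statistic (a score), p-value and adjusted p-value, per the file headers. TopHat2 2.1.1, HTSeq, DESeq2 and build GRCm38 are named per the submitters' processing notes, without settings. Symbols from GENCODE M21 matched 2698 of 2701 IDs. Starts were raised by 1, since 2214 lay 1 base below GENCODE's.

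The authors' size factors were recovered from base means and counts (1.10 and 1.28 for Lats1/2 KO 1 and 2, 0.792 and 0.907 for WT 1 and 2), and rebuilt base means deviated by at most 0.0119%. Normalized counts are counts divided by these factors. The test was edgeR 4.0.16's quasi-likelihood test (R 4.3.3) with these factors, filterByExpr, genotype alone and Benjamini-Hochberg adjustment over the table at 0.05. It was tested on simulated data in which most genes were unchanged, unlike the genes of this table. Because the table holds genes already called, edgeR's calls are not independent of the authors', and adjustment covers the table alone. "Rose" and "fell" mean past both thresholds. Alternatives were TMM, DESeq2 1.42.0, no filter, a replicate block and each library left out. The 3 genes, the 24 lists and the rules were chosen with earlier results of these data known. Named are the 3 genes, Lats1, the listed pathway genes, some members of the marker lists and the 4 genes nearest in pattern. Those nearest genes had a base mean of at least 20, and unnamed models were passed over.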

Additional observations from a re-analysis of the deposited data

How the results depend on the processing

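Lgr5 stayed lower and Lrig1 and Znrf3 higher under all 9 alternatives run for each. The table holds selected genes, so scaling on it is off-centre. Against the authors' factors, TMM factors raised the genes' log2 fold changes by a median of 0.36 and DESeq2 size factors by a median of 0.41. With them, Lgr5 was at -1.26 and -1.21 and missed the edgeR threshold (adjusted p = 0.0631 and 0.0715), and edgeR called 1651 and 1589 genes in place of 2698. Lrig1 was then at 1.25 and 1.29, and Znrf3 at 1.32 and 1.37. DESeq2's own test called 2700 genes.

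With 1 library left out, which leaves a group with a lone library assumed to vary like the other group, log2 fold changes ranged from -1.97 to -1.18 for Lgr5, from 0.53 to 1.39 for Lrig1 and from 0.70 to 1.29 for Znrf3. Calls over the table ranged from 5 (without Lats1/2 KO replicate 2) to 2454 (without WT replicate 1), with 1503 without Lats1/2 KO replicate 1. The log2 ratio of Lrig1 to Lgr5, Lats1/2 KO minus WT, ranged from 1.71 to 3.37, that of Znrf3 to Lgr5 from 1.88 to 3.27, and that of Lrig1 to Znrf3 from -0.17 to 0.10.

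With the replicate number as a block, edgeR called 2535 genes, and Lgr5, Lrig1 and Znrf3 kept their calls at -1.58, 0.96 and 1.00 (adjusted p = 0.0355, 0.0268 and 0.0402). Deviations of same-numbered libraries had a weak negative correlation (r = -0.19 across 2697 genes, which are not independent), so the numbers are no evidence of pairing. A crossed pairing, chosen after seeing the data, gave 2660 calls. Lgr5 rests on 28 and 33 counts in Lats1/2 KO 1 and 2, and on 46 and 91 in WT 1 and 2.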
